A study of Mus musculus with 8 samples.

Results

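The genes described here carry dietary fat through the enterocyte, the absorptive cell of the gut lining. They are Fabp1, Fabp2, Cd36, Mogat2, Dgat1, Mttp, Apob, Apoa1, Apoa4 and Apoc3, and they were found by their symbols in both deposited RNAseq tables, where all 10 are listed. They are 10 of the 40178 genes that at least 1 of the tables lists, of which 20229 are protein coding. RNAseq was performed on intestinal epithelial cells (IECs), the fraction that EDTA releases from the gut wall, of the ileum and the colon of 4 mice. The study asked how the RNA helicase DDX5 acts in the gut epithelium, also in colitis and tumorigenesis, and these libraries are of mice at steady state. WT mice were DDX5(+/+), Vil1Cre(+) and DDX5ΔIEC mice were DDX5(fl/fl), Vil1Cre(+), all labelled as 8 weeks old. There were 2 mice of each genotype and so 2 libraries in each of the 4 groups. The study describes 2 independent littermate pairs that were housed together, and which mice formed a pair is not given in the sources used here. The Villin1 promoter drives Cre in epithelial cells, so every mouse carried Cre and any other cell type in the fraction kept Ddx5. By the mouse numbers in the study's tables, each mouse gave 1 ileum and 1 colon library, and both carry its replicate number.

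Fat is absorbed as fatty acids and monoacylglycerol, which the enterocyte joins again into triglyceride and loads onto apolipoprotein B to make a chylomicron, the particle that leaves for the lymph. CD36 is a fatty acid receptor of the cell surface, and FABP1 and FABP2 bind fatty acids in the cytoplasm. MOGAT2 and DGAT1 rebuild triglyceride at the endoplasmic reticulum, MTTP transfers it to APOB, and APOA1, APOA4 and APOC3 join the particle. The small intestine is the main site of this pathway, most strongly its upper part, and the colon absorbs little fat.

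Total counts on genes ranged from 11571061 to 22984283 per library. Ddx5, the targeted gene, was 634 and 636 CPM in the WT ileum and 308 and 296 CPM in the DDX5ΔIEC ileum, and it was 852 and 785 against 404 and 390 CPM in the colon (CPM, counts scaled to the library total after TMM normalization within a tissue). The log2 fold change of Ddx5 was -1.07 ± 0.18 (SE) in the ileum, with an adjusted p of 0.0270 from edgeR's quasi-likelihood test, and -1.04 ± 0.09 in the colon, with an adjusted p of 0.0866. Which exons are deleted is not given in the sources used here, so these gene counts may include exons outside the deletion. All 5 epithelial markers were detected in every tissue and summed to 7845 to 14790 CPM (normalized over all 8 libraries), against at most 3.09 CPM for 4 endothelial, 13.7 CPM for 4 stromal and 4.18 CPM for 4 macrophage markers in any library. Replicate 2 of the DDX5ΔIEC ileum had 19.5% of its counts on Gm10800, Gm10801 and Gm21738, called the 3 repeat-like genes here. That share was 0.226% to 4.05% in the other ileum libraries. In these bulk samples, fewer cells of a type and less RNA per cell cannot be told apart, and with 2 mice a group the p-values measure the spread between these samples only. An exact permutation test of 2 against 2 libraries cannot give a two-sided p below 0.333.

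The genes lie on 7 chromosomes, and Apoa1 (chr9:46228580-46230466), Apoc3 (chr9:46232933-46235636) and Apoa4 (chr9:46240696-46243459) are close neighbours in GRCm38. Fabp1 lies at chr6:71199827-71205023, Fabp2 at chr3:122895072-122899506 and Apob at chr12:7977648-8016835, all on the plus strand. RefSeq promoter windows, 250 bases before to 50 after a start site in GRCm38.p6, were matched for 7 of the genes, namely Apoa1, Apoa4, Apob, Cd36, Fabp1, Fabp2 and Mttp. The 250 bases before the start are printed for the 4 whose window holds a motif that was searched. Capitals mark either CAAAGNNCA, a core that the HNF4 nuclear receptors of the gut epithelium can bind, or the TATA motif TATAAA, both read on either strand. The windows are Fabp1 at chr6:71199629-71199878, Fabp2 at chr3:122894822-122895071, Apoa4 at chr9:46240594-46240843 and Apob at chr12:7977427-7977676. The gene positions above are of GENCODE, whose start sites can differ from those of RefSeq. The windows of Fabp1, Apoa4 and Apob end inside the gene as placed above.
Fabp1: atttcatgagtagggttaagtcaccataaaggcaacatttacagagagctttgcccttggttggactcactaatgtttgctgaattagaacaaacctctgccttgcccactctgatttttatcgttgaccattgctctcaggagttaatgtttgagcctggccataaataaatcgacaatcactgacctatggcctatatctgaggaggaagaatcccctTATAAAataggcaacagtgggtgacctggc
Fabp2: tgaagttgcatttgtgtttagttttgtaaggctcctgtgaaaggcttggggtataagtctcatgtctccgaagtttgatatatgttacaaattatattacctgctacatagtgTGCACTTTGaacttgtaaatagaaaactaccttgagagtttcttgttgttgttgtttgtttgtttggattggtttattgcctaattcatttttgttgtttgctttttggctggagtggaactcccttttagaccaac
Apoa4: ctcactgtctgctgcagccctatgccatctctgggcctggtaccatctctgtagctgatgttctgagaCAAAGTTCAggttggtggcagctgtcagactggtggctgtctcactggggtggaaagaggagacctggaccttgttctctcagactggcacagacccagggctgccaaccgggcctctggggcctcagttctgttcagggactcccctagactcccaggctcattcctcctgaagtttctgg
Apob: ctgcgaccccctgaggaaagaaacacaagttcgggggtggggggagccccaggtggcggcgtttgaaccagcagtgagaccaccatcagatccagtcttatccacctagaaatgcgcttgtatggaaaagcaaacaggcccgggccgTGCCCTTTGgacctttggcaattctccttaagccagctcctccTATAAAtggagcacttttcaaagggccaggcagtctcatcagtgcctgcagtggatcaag
CAAAGNNCA was found in 3 of the 7 windows, those of Fabp2, Apoa4 and Apob, and in 6.36% of all 32851 RefSeq windows of the same length. TATAAA was found in 2 of the 7, those of Fabp1 and Apob, and in 13.6% of all windows, and in Fabp1 it begins 30 bases before the RefSeq start site. The GATA motif AGATAA was in 0 of the 7 windows and in 11.2% of all. No motif overlaps another in the printed windows. A match describes the letters only, and binding was not measured in these files.

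The first comparison set the ileum against the colon. All 10 genes were higher in the ileum than in the colon in both genotypes, with adjusted p from 9.85e-07 to 0.00758 in WT mice by edgeR's quasi-likelihood test over 8 libraries. That test did not use the pairing of the 2 libraries of a mouse. With the mouse as a replicate block all 10 were called higher as well, in both genotypes. Of all 16178 genes tested, 17.4% were called higher in the WT ileum. The median log2 ratio of the 10 genes was 6.96, beside -0.02 over all genes tested. In DDX5ΔIEC mice all 10 were called higher as well, where 18.0% of all genes were, and their median log2 ratio was 7.50 beside -0.04. The members took 0.886% and 1.03% of all counts in the WT ileum and 0.0377% and 0.0362% in the WT colon.

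**Figure D1:**
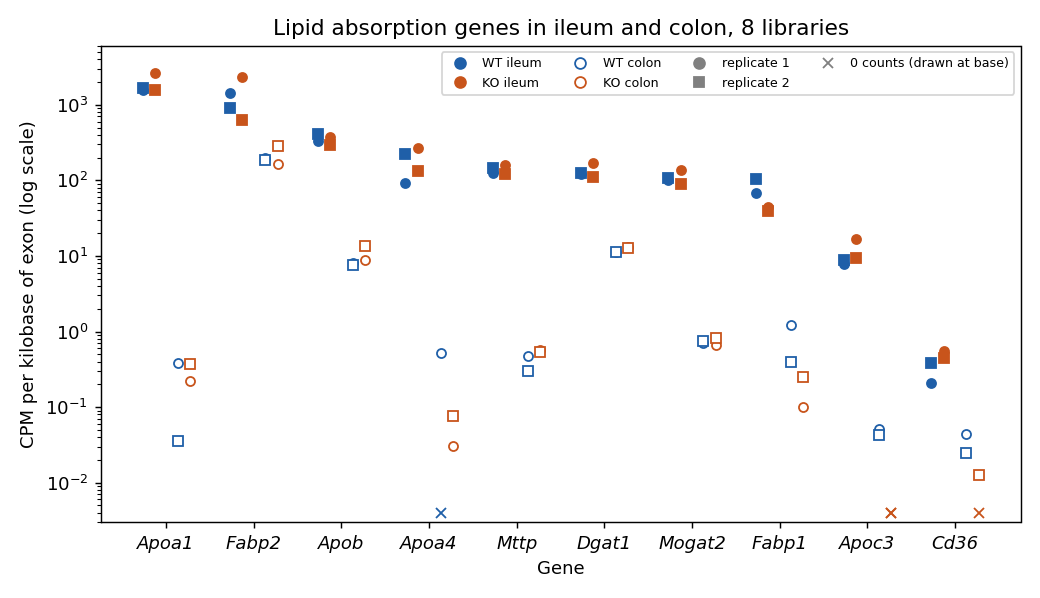
CPM per kilobase of exon of the 10 genes (log axis) in all 8 libraries, normalized over the 8 libraries. Filled symbols are ileum, open symbols are colon, circles are replicate 1 and squares replicate 2, and crosses at the base stand for 0 counts. For every gene, each ileum library lies above each colon library.

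Levels of different genes were compared as CPM per kilobase of exon, normalized over all 8 libraries. In the WT ileum the highest was Apoa1, the main protein of high density lipoprotein and also a chylomicron protein, at 1614 ± 94.3 CPM per kilobase (SD, n = 2). Fabp2 followed at 1166 ± 374 and Apob, the scaffold of the chylomicron, at 369 ± 58.0. These 3 did not overlap, and Apoa1 ranked 21 and 15 among 20229 protein-coding genes in the WT libraries. Apoa4 was next at 157 ± 91.4, then Mttp at 135 ± 16.8, Dgat1 at 124 ± 3.87, Mogat2 at 105 ± 5.17 and Fabp1 at 86.5 ± 26.9. The libraries of Apoa4 overlapped those of all 4 genes below it, Mttp overlapped Dgat1, and Mogat2 overlapped Fabp1, so these 5 genes formed 1 band. Apoc3, which slows the clearing of triglyceride from plasma, was far lower at 8.33 ± 0.706. Cd36 was the lowest at 0.296 ± 0.128 CPM per kilobase and ranked 12094 and 11311.

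The colon kept only part of the pathway. Fabp2 was the highest there at 194 ± 8.16 CPM per kilobase (SD, n = 2) in WT mice, followed by Dgat1 at 11.3 ± 0.126 and Apob at 7.77 ± 0.310, and these 3 did not overlap. Mogat2 was 0.730 ± 0.0198 and Mttp 0.390 ± 0.120 CPM per kilobase. The other 5 genes were close to the limit of detection. Fabp1 had 13 and 5 raw counts in WT and 1 and 3 in DDX5ΔIEC colon, Apoa1 had 9 and 1 against 5 and 10, and Apoa4 had 18 and 0 against 1 and 3. Cd36 had 3 and 2 counts in WT and 0 and 1 in DDX5ΔIEC colon, and Apoc3 had 1 and 1 against 0 and 0. A count of 0 allows up to 3 counts, 0.147 to 0.182 CPM in a colon library, and these 5 genes did not have enough counts to be tested between the genotypes there. With no filter on low counts, 0 of the 10 genes were called in the colon.

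The size of the step between the segments differed among the genes. The fitted log2 ratio in WT mice was largest for Apoa1, at 12.96 ± 0.64 (SE, adjusted p = 4.59e-06 by edgeR), and it was 9.32 ± 0.88 for Apoa4 and 8.45 ± 0.28 for Mttp. It was 7.26 ± 0.53 for Apoc3, 7.16 ± 0.26 for Mogat2, 6.76 ± 0.39 for Fabp1 and 5.57 ± 0.31 for Apob. Fabp2 had the smallest, at 2.59 ± 0.56, with Cd36 at 3.03 ± 0.62 and Dgat1 at 3.46 ± 0.20. With 1 library left out, the ranges of Fabp2 (2.21 to 2.88) and Cd36 (2.55 to 3.44) overlapped, so their order was not firm. The order of Apoa1 and Apoa4 was not firm, since with 1 library left out the ratio ran from 12.02 to 15.24 for Apoa1 and from 8.21 to 15.23 for Apoa4. Both were highest without replicate 1 of the WT colon, which leaves 1 count of Apoa1 and 0 of Apoa4 in that group, and lowest without replicate 2 of the WT colon. A fitted ratio against a group at 0 depends on the fit and is no bound. From summed counts, Apoc3 had 301 counts in the WT ileum and 2 in the WT colon, a ratio of 174 with a 95% exact interval of 47.8 to 1440. In DDX5ΔIEC mice Apoc3 had 270 counts in the ileum and 0 in the colon, which is at least 180-fold higher with 3 counts allowed over the group. Cd36 had 36 ileum counts in each genotype, against 5 in the WT colon, a ratio of 8.33 (3.26 to 27.2), and 1 in the DDX5ΔIEC colon, a ratio of 72.1 (12.1 to 2920). Intervals and floors cover counting error only. Left without replicate 1 of the WT colon, Fabp2 missed the threshold in WT mice (adjusted p = 0.055), and left without replicate 2 of the WT colon both Fabp2 (0.0602) and Cd36 (0.0712) did. Without replicate 2 of the WT ileum, Cd36 again missed it (0.0514).

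Markers of the absorptive cell moved with the same contrast. The 11 villus enterocyte markers summed to 10960 to 17260 CPM in the ileum libraries and 815 to 908 CPM in the colon libraries, and 10 of them were called higher and 1 lower in the WT ileum. The 6 colonocyte markers summed to 705 to 851 CPM in the ileum and 3478 to 4842 CPM in the colon. Of them 4 were called lower in the WT ileum and 1, Car4, was called higher (log2 ratio 1.07). The part of cell composition in the step between the segments was not tested.

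Ratios of genes within 1 library do not depend on its scaling. Dgat1 over Mogat2, the enzymes that form triglyceride in sequence, was 1.20 and 1.17 per kilobase in the WT ileum and 1.22 and 1.20 in the DDX5ΔIEC ileum, and 15.3 to 20.1 in the colon. Mttp over Apob was 0.376 and 0.358 in the WT ileum, 0.417 and 0.410 in the DDX5ΔIEC ileum, and 0.0395 to 0.0655 in the colon. The first ratio thus varied little over the ileum libraries, and the second was higher in both DDX5ΔIEC libraries than in both WT libraries. Apoa1 over Apob was higher in both as well, at 4.72 and 4.10 in WT and 6.93 and 5.34 in DDX5ΔIEC. Such a separation is common, since the levels of 39.5% of all genes tested in the ileum separated the genotypes in either direction. The ratios were not tested. Apoa1 over its neighbour Apoc3 was 198 and 190 in the WT ileum and 156 and 167 in the DDX5ΔIEC ileum, lower in both DDX5ΔIEC libraries. Apoa1 over Apoa4 varied more, from 7.60 to 16.8.

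The next question was whether loss of DDX5 in the epithelium changed these genes in the ileum. All 10 passed the filter on low counts there. Fabp1, the liver-type fatty acid binding protein, had 809 and 841 raw counts in WT replicates 1 and 2 and 260 and 200 in DDX5ΔIEC replicates 1 and 2. Normalized, it was 33.8 and 52.9 CPM in WT and 22.1 and 19.4 CPM in DDX5ΔIEC. Both DDX5ΔIEC libraries were below both WT libraries, and the WT libraries lay further apart than the DDX5ΔIEC ones. The log2 fold change was -1.02 ± 0.19 (SE), a 0.492-fold level, with an adjusted p of 0.0428 by edgeR's quasi-likelihood test, in which the replicate number was a block. Fabp1 was the 1 gene of the 10 that was called, and 0.697% of the 14068 genes tested were called. The study's title names Fabp1, so it is not an independent choice here.

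The call for Fabp1 depended on how the counts were fitted. It was held with RLE normalization (adjusted p = 0.0489) and with no filter on low counts (2.05e-06), and it was lost without the replicate block (adjusted p = 0.449) and with DESeq2 with the block (0.0627). It was also lost without the repeat-like genes (0.0991) and in the 1 fit over all 8 libraries (0.308). Leaving out any 1 ileum library, with no block, ended the call, at adjusted p of 0.195 to 1. The log2 fold change stayed negative under all 14 settings, between -0.70 without WT replicate 2 and -1.35 without WT replicate 1.

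**Figure D2:**
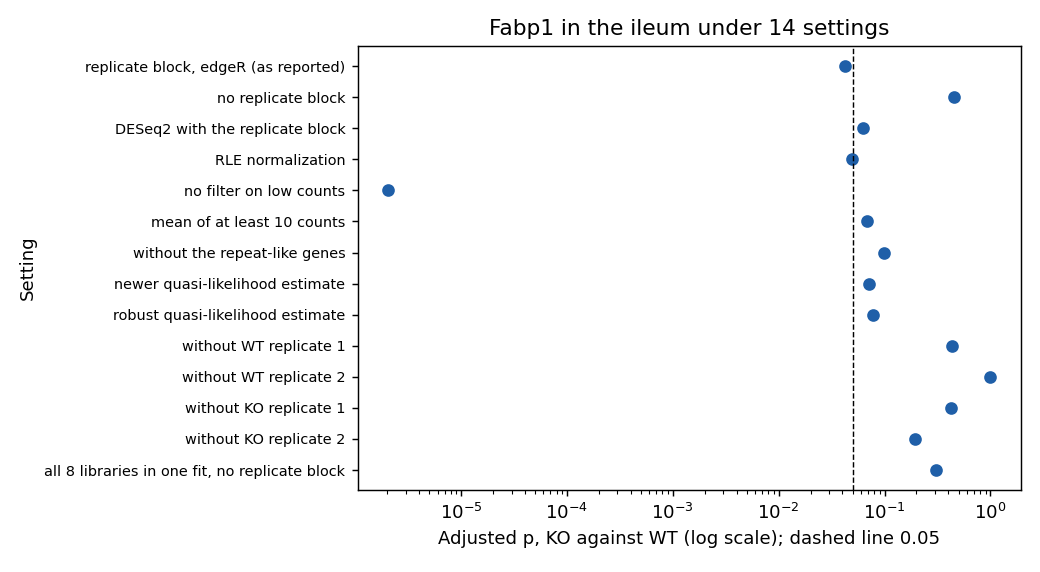
Adjusted p of Fabp1 in the ileum, DDX5ΔIEC (KO) against WT, on a log axis under each of 14 settings, with a dashed line at 0.05. The points of 3 settings lie below 0.05, the reported fit (0.0428), RLE normalization (0.0489) and no filter (2.05e-06), and the other 11 lie above it.

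Fabp2, the intestinal fatty acid binding protein, had values that crossed. It was 1248 and 789 CPM in the WT ileum and 2012 and 554 CPM in the DDX5ΔIEC ileum, so the DDX5ΔIEC libraries were the highest and the lowest of the 4. The log2 fold change was 0.09 ± 0.28 (SE, adjusted p = 0.942 by edgeR). Cd36 had 16 and 20 raw counts in WT and 21 and 15 in DDX5ΔIEC, or 0.668 and 1.26 against 1.79 and 1.46 CPM. Its groups did not overlap, and its log2 fold change was 0.82 ± 0.45 with an adjusted p of 0.515. Endothelial cells, adipocytes and macrophages also express Cd36, and in the ileum libraries the 4 markers of each of these cell types summed to 0.843 to 1.71, 0 to 0.535 and 2.29 to 4.18 CPM, in that order. The part of these cells in the Cd36 counts was not tested.

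The enzymes that rebuild triglyceride showed no call. Mogat2, which acylates monoacylglycerol, was 168 and 180 CPM in WT and 231 and 151 CPM in DDX5ΔIEC, and its log2 fold change was 0.10 ± 0.18 (adjusted p = 0.878). Dgat1, which adds the last fatty acid, was 336 and 352 CPM against 469 and 303 CPM, with a log2 fold change of 0.13 ± 0.20 (adjusted p = 0.855). In both, the WT libraries lay close together and between the DDX5ΔIEC libraries. Mttp, the lipid transfer protein, was 692 and 827 against 886 and 678 CPM, with a log2 fold change of 0.04 ± 0.22 (adjusted p = 0.975).

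Among the apolipoproteins, Apob was 4131 and 5182 CPM in the WT ileum and 4767 and 3712 CPM in the DDX5ΔIEC ileum, and its log2 fold change was -0.14 ± 0.29 (SE, adjusted p = 0.906 by edgeR). Apoa1 was 1730 and 1885 against 2930 and 1758 CPM, with a log2 fold change of 0.33 ± 0.27 (adjusted p = 0.694). For both, the genotypes overlapped. Apoa4, a chylomicron protein known to follow fat intake, was 151 and 364 against 436 and 218 CPM, with a log2 fold change of 0.40 ± 0.40 (adjusted p = 0.765). Apoc3 was 7.18 and 8.12 CPM in WT and 15.4 and 8.65 CPM in DDX5ΔIEC, from 172, 129, 181 and 89 raw counts. Both DDX5ΔIEC libraries were above both WT libraries, though replicate 2 only narrowly, and the log2 fold change was 0.64 ± 0.24 (unadjusted p = 0.0213, adjusted p = 0.306 by edgeR). Of the 50-base words in the Apoa4 transcripts, 60.9% also occur in other genes, mainly Gm47528 on the opposite strand, and whether strand was used in counting is not given in the sources used here. That gene had 0 to 3 counts in the ileum libraries, and Gm10680, which shares 632 exon bases with Apoa4, had 0 to 7. These counts do not show how many reads of Apoa4 went uncounted, so its level per kilobase and its ratio to Apoa1 carry this limit. Mttp carries it too, as it shares 457 exon bases with Trmt10a on the opposite strand. In the colon libraries Trmt10a had 89 to 108 raw counts and Mttp 43 to 73, so the colon level of Mttp and its colon ratio to Apob carry this limit.

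The study's own criterion asked for an unadjusted p under 0.05 and a log2 fold change of 0.5 or more, up or down. The study took its p from DESeq2, while here the criterion was applied to edgeR's p unless DESeq2 is named. In the ileum Fabp1 (lower) and Apoc3 (higher) passed it, 2 of the 10, where 7.35% of all genes tested did. With DESeq2 and the block Fabp1 alone of the 10 passed it. Of all 14068 genes, 231 then passed it upwards and 183 downwards. Without the replicate block Fabp1 alone passed it, and without DDX5ΔIEC replicate 2 the number was 4. The genotypes did not overlap for 3 of the 10 genes, Fabp1, Apoc3 and Cd36, and for 39.5% of all genes tested. The median log2 fold change of the 10 genes was 0.12, beside -0.005 over all genes tested.

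**Figure D3:**
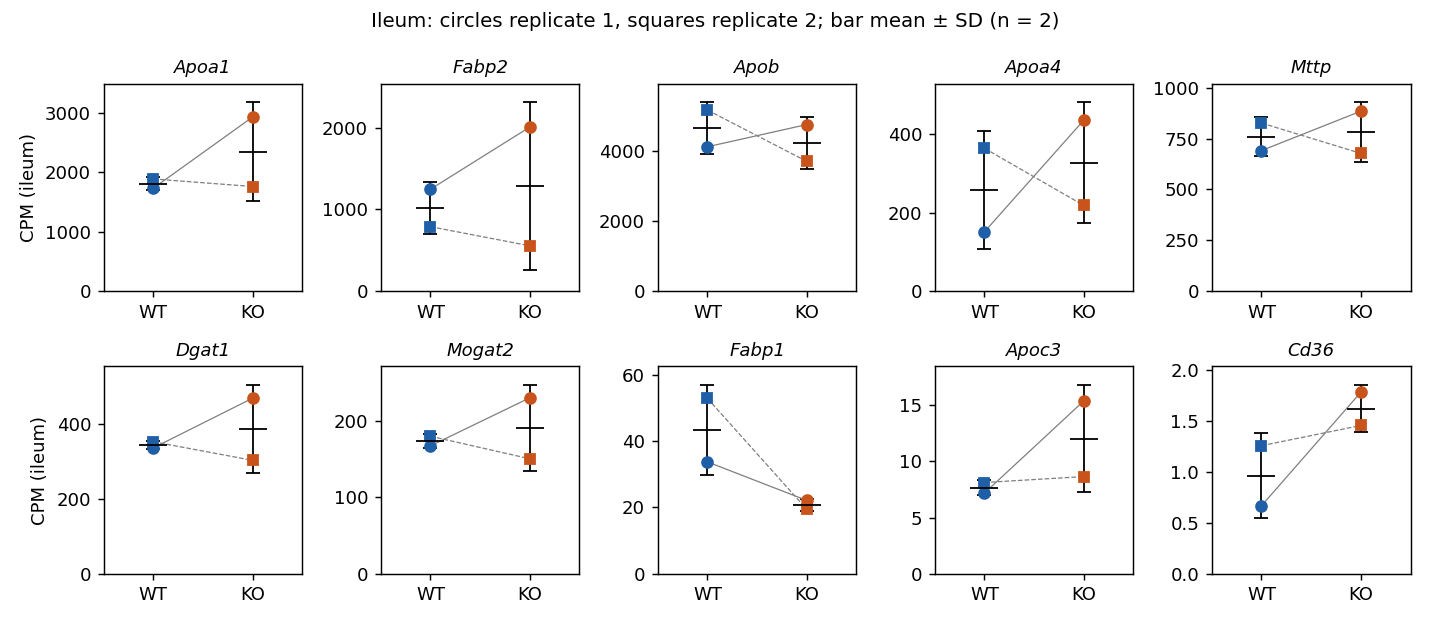
CPM of the 10 genes in the ileum (normalized within the ileum, axes from 0) in WT and DDX5ΔIEC (KO) mice, with circles for replicate 1, squares for replicate 2, lines joining libraries of the same number, and bars at mean ± SD (n = 2). Both KO libraries lie below both WT libraries for Fabp1 and above them for Apoc3 and Cd36, and the other 7 genes overlap.

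The DDX5ΔIEC ileum libraries differed from each other across the pathway. Replicate 1 was the highest of the 4 ileum libraries for 8 of the 10 genes, all but Fabp1 and Apob, and was the highest for 30.5% of all genes tested. Replicate 2 was the lowest of the 4 for 6 of the 10, namely Fabp1, Fabp2, Apob, Mttp, Mogat2 and Dgat1, and was the lowest for 26.5% of all genes tested. Against the WT library of the same replicate number, 9 of the 10 genes were higher in replicate 1 and 2 of the 10, Apoc3 and Cd36, in replicate 2. The median log2 ratio of the 10 was 0.58 in replicate 1 and -0.27 in replicate 2, beside -0.006 and -0.014 over all genes tested. Apoa4 had the widest span, 2.89-fold in replicate 1 and 0.599-fold in replicate 2, while Fabp1 was lower in both, at 0.655-fold and 0.367-fold. Scaled to plain totals without the repeat-like genes, the 10 genes kept these directions, and Fabp2 was 1.49-fold and 0.697-fold. The 11 villus enterocyte markers moved with this split as a sum only. They summed to 13390 and 13110 CPM in WT and 17260 and 10960 CPM in DDX5ΔIEC replicates 1 and 2. Normalized within the ileum, Alpi was 200 and 220 against 408 and 233 CPM. Nt5e was 12.35 and 18.8 against 53.9 and 26.5 CPM, and Sis was 2643 and 3629 against 2634 and 2157 CPM. Of the 11, 0 were called, and 3 (Alpi, Treh and Nt5e) passed the study's criterion upwards. The part of these cells in the split, and that of the repeat-like counts of replicate 2, was not tested.

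**Figure D4:**
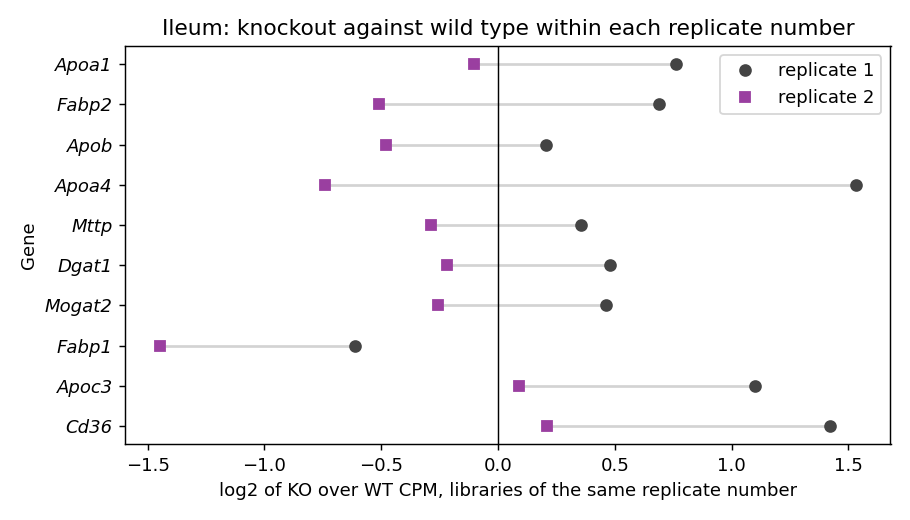
log2 ratio of DDX5ΔIEC (KO) over WT CPM in the ileum between libraries of the same replicate number, with circles for replicate 1 and squares for replicate 2, 1 line per gene. In replicate 1 all genes but Fabp1 lie above 0, and in replicate 2 all but Apoc3 and Cd36 lie below 0.

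In the colon 5 of the 10 genes, Fabp2, Apob, Dgat1, Mttp and Mogat2, had enough counts to be tested. The number called was 0 of 5 by edgeR's quasi-likelihood test, as it was over all 15362 genes (0%). Over all genes, 1836 had an unadjusted p under 0.05, and DESeq2 with the block called 116, none of them among the 5. The study's criterion was passed by 0 of the 5 and by 6.71% of all genes tested. With DESeq2 and the block 0 of the 5 passed it as well, and of all 15362 genes 198 passed it upwards and 310 downwards. The median log2 fold change of the 5 was 0.20, beside -0.0004 over all genes tested.

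Apob had the lowest unadjusted p of the 5 in the colon. It was 123 and 117 CPM in WT and 135 and 208 CPM in DDX5ΔIEC, with a log2 fold change of 0.49 ± 0.17 (SE, unadjusted p = 0.0401, adjusted p = 0.402 by edgeR). Mttp was 3.25 and 2.10 CPM in WT and 3.95 and 3.66 CPM in DDX5ΔIEC, a log2 fold change of 0.53 ± 0.26 (adjusted p = 0.488), and Dgat1 was 37.7 and 38.6 against 44.8 and 42.8 CPM, a log2 fold change of 0.20 ± 0.10 (adjusted p = 0.488). For these 3 genes both DDX5ΔIEC libraries were above both WT libraries, 3 of 5, which also held in either direction for 44.5% of all genes tested. Fabp2 was 212 and 201 CPM in WT and 173 and 298 CPM in DDX5ΔIEC, with a log2 fold change of 0.14 ± 0.21, and its direction rested on DDX5ΔIEC replicate 2, without which it was -0.26. Without DDX5ΔIEC replicate 1 and with no block, Apob (log2 fold change 0.79, adjusted p = 3.05e-10) and Fabp2 (0.53, adjusted p = 4.8e-05) were called, as were 963 of all genes. Without DDX5ΔIEC replicate 2, 2506 genes were called, and 0 of the 7 genes of the pathway that could then be tested. Mogat2 was 1.45 and 1.52 against 1.34 and 1.65 CPM, with a log2 fold change of 0.01 ± 0.31.

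**Figure D5:**
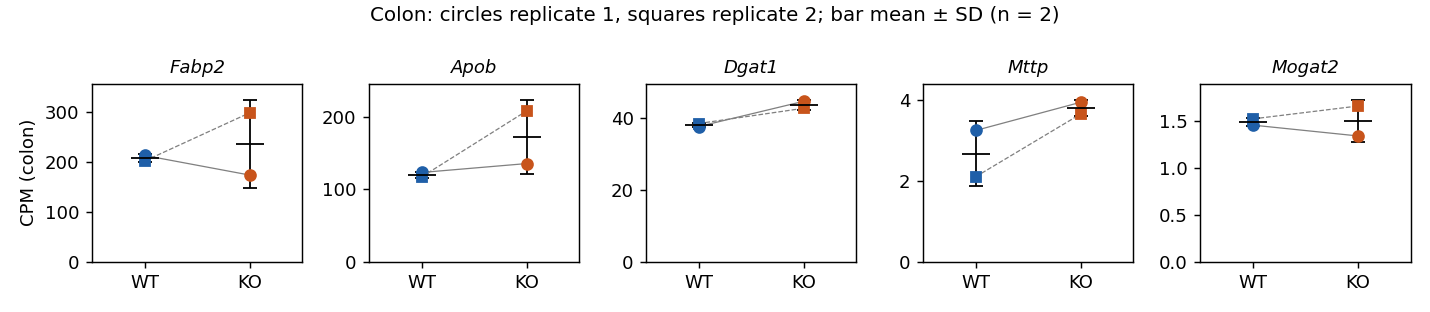
CPM (normalized within the colon, axes from 0) of the 5 genes tested in the colon, in WT and DDX5ΔIEC (KO) mice, with circles for replicate 1, squares for replicate 2, lines joining libraries of the same number, and bars at mean ± SD (n = 2). Both KO libraries lie above both WT libraries for Apob, Dgat1 and Mttp, and Fabp2 and Mogat2 overlap.

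Sums of colon markers differed between the genotypes as well, though no marker was called by edgeR. The 6 colonocyte markers summed to 3478 and 3697 CPM in WT and 4373 and 4842 CPM in DDX5ΔIEC colon. Of the 6, 4 passed the study's criterion upwards, while Car1 had a log2 fold change of 0.007. The 4 goblet markers summed to 43060 and 48300 CPM in WT and 24460 and 38340 CPM in DDX5ΔIEC colon. Of them, 2 passed it downwards, Clca1 (log2 fold change -1.57) and Fcgbp (-0.62). Muc2 (0.09) and Tff3 (-0.15) did not pass it, so the goblet sum does not show a change of goblet cells. The 4 genes of the Paneth list summed to 1390 and 1575 CPM in WT and 217 and 425 CPM in DDX5ΔIEC colon. Of these 4, Ang4 (log2 fold change -2.35) and Itln1 (-1.65) passed the study's criterion downwards. Most of the sum was Ang4, with 24985 and 34117 raw counts in WT and 3617 and 8494 in DDX5ΔIEC colon. Lyz1 had 18 and 21 against 38 and 10, and Defa24 had 23 and 4 against 8 and 6. The sum thus does not show a change of Paneth cells. The 4 T cell markers summed to 8.25 and 4.80 CPM in WT and 0.773 and 3.19 CPM in DDX5ΔIEC colon. Whether any change of cell types has a part in the values of Apob, Mttp and Dgat1 was not tested.

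Whether the genotype difference itself differed between ileum and colon was tested over all 8 libraries. The interaction was called for 0 of the 10 genes and for 0.0124% of all 16178 genes by edgeR's quasi-likelihood test, which is 2 genes, while 755 had an unadjusted p under 0.05 and DESeq2 called 17 genes, none of the 10. For Fabp1 the interaction was 0.99 ± 0.91 (log2, SE, adjusted p = 1), and its sign means that the fitted drop was larger in the colon. Fabp1 had only 13 and 5 raw counts in the WT colon and 1 and 3 in the DDX5ΔIEC colon. A drop of Fabp1 particular to the ileum was thus not shown, and these counts are too few to decide it. With no filter on low counts Apoa4 was called, with an interaction of 2.38 (adjusted p = 0.0384), and without replicate 1 of the WT colon, which held all 18 of its WT colon counts, the interaction of Apoa4 was -3.52 (adjusted p = 1).

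A wider set of 81 genes around the pathway was followed in 8 lists, and 80 of them are in at least 1 table. In the WT ileum against the WT colon, 46 of 74 tested were called higher (62.2%) and 12 lower (16.2%), beside 17.4% higher and 16.8% lower of all genes tested, with a median log2 ratio of 0.68. The list of chylomicron assembly and transport had 13 higher and 2 lower of 15, led by Pla2g12b (log2 ratio 4.31), a partner of lipoprotein lipidation, and the COPII coat gene Sec23a (1.07). Of 10 genes of fatty acid and sterol uptake and activation, 5 were higher and 4 lower, with the cholesterol importer Npc1l1 at 11.92 and the lipoprotein receptor Scarb1 at -3.75. Of 13 genes of triglyceride synthesis 8 were higher and 2 lower, led by Gpat3 (3.07) and Agpat2 (2.05). Of 8 lipid droplet genes 4 were higher and 2 lower, led by Cidec (3.48) and Cideb (2.54). Of 6 genes of other apolipoproteins and sterol export 3 were higher and 1 lower, led by Soat2 (6.69), which esterifies cholesterol, and the sterol exporter Abcg8 (5.11). The ileal bile acid binder Fabp6, at 9.97, was the 1 called of 3 other FABPs tested, and Fabp3 had 3.05 (adjusted p = 0.119). Of 15 transcription factors 10 were higher and 1 lower, with Creb3l3 at 5.27 and Gata4 at 4.81, and of 4 genes of Apob RNA editing 2 were higher, A1cf (1.74) and Rbm47 (0.65).

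Between the genotypes in the ileum, 1 of the 73 wider genes tested was called. Fabp3, the heart-type fatty acid binding protein, had 5 and 4 raw counts in WT and 41 and 11 in DDX5ΔIEC, a log2 fold change of 3.30 ± 0.58 (SE, adjusted p = 0.0306 by edgeR), and the call was lost without the block (adjusted p = 0.43) and with any 1 ileum library left out (0.0584 to 1). The study's criterion was passed by 6 of the 73 (8.22%), close to the 7.35% of all genes tested, upwards by Fabp3 and Apoe (0.69) and downwards by Lpin1 (-0.66), a phosphatidate phosphatase, the fatty acid activating Acsl4 (-0.53), Abcg8 (-0.55) and Soat2 (-0.59). Lpin1 was 43.9 and 47.5 CPM in WT and 26.5 and 31.7 CPM in DDX5ΔIEC. The median log2 fold change of the 73 was 0.12. No gene of the lipid droplet, chylomicron assembly, Apob editing or transcription factor lists passed either rule in the ileum.

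In the colon, 0 of the 72 wider genes tested were called by edgeR, and 8 passed the study's criterion (11.1%), beside 6.71% of all genes tested. Higher were the bile acid binder Fabp6 (1.09), the paired sterol exporters Abcg5 (1.02) and Abcg8 (0.88), the transcription factor Creb3l3 (0.81) and the droplet coat gene Plin2 (0.58). Lower were the fatty acid transporter Slc27a2 (-0.88), Fabp5 (-0.62) and the transcription factor Cdx2 (-0.54). Plin2 was 85.0 and 87.7 CPM in WT and 160 and 104 CPM in DDX5ΔIEC colon, and Abcg5 was 7.31 and 7.24 against 23.4 and 9.17 CPM. Replicate 1 held the higher DDX5ΔIEC value of both. Without DDX5ΔIEC replicate 2, Plin2, Abcg5, Abcg8, Slc27a2 and Cdx2 were called in the same directions (adjusted p from 7.76e-12 to 0.00038 by edgeR with no block), and without DDX5ΔIEC replicate 1 Fabp6 was (0.00882). These calls rest on 1 DDX5ΔIEC library each, and 15.8% and 5.93% of all genes tested were then called. Without DDX5ΔIEC replicate 1 the log2 fold change of Abcg5 was 0.33 and that of Plin2 was 0.27, and neither was called. The median log2 fold change of the 72 was 0.009. Abcg8 thus had a log2 fold change above 0 in the colon and below 0 in the ileum.

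The 5 protein-coding genes whose pattern over the 8 libraries was most like that of Fabp1 were Rragd, Depdc7, Adh6a, Ms4a18 and Tm4sf4. Their root mean square difference to Fabp1, in log2 CPM centred on each gene, was 0.378 for Rragd and 0.484 for Tm4sf4. Among the other 9 genes of fat absorption, Apob came nearest at 0.561, rank 18 of 16178 genes, and Apoa1 was farthest at 3.05, rank 13071. The likeness rests mostly on the step between ileum and colon, which all of these libraries share.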

How the data were processed

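RNAseq of IECs was analysed in 8 libraries, and groups and replicate numbers were taken from the sample labels. Per the study's methods and the submitters' processing notes, the authors aligned paired-end reads of ribosome-depleted RNA to mm10 with STAR 2.6.1a and counted uniquely mapped reads over exons with featureCounts (version not given in the sources used here). The authors deposited 1 table per tissue with raw counts, a normalized signal (counts divided by a DESeq2 1.18.1 size factor), the exon length of each gene, and their own fold changes and p-values, which were not used here. The exon lengths (bases) deposited by the authors were used to give CPM per kilobase. The raw counts were used for every test. The number of per-sample columns left out was 0.

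The tables list 38649 genes in the ileum and 28349 in the colon, and 26 and 25 symbols that had become dates were set back to gene names. A gene in 1 table only was counted as 0 in the other tissue. R 4.3.3, edgeR 4.0.16 (filterByExpr with a minimum count of 10, TMM, quasi-likelihood test in its legacy form, Benjamini-Hochberg adjustment over all genes tested), DESeq2 1.42.0 and Python 3.11.15 were used, and the scripts were tested on simulated data. Within a tissue the replicate number was a term in the fit, since the study's design had a covariate for harvest and its legends describe pairs of littermates. Segments and the interaction were tested over all 8 libraries without it. The reported fit treats these 8 as independent, although each mouse gave 1 ileum and 1 colon library. A call is an adjusted p under 0.05. SE is of the log2 fold change, and SD is of 2 libraries. Intervals are 95% exact binomial intervals on counts.

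The genes, the lists and the repeat-like genes were chosen with earlier results of these data known. All 10 genes are named throughout. Of the wider lists, genes past either rule between genotypes, or the 2 with the largest log2 ratio between segments, are named. Marker lists for epithelium, villus and ileal enterocyte, colonocyte, crypt, Paneth, goblet, endothelial, adipocyte, macrophage, T, B and plasma, stromal and hepatocyte cells were summed per library. The last 7 of these came to at most 28.2 CPM in any library, the 4 ileal enterocyte markers to 1958 to 4091 CPM in the ileum and 23.5 to 108 CPM in the colon, the 5 crypt markers to 318 to 1435 CPM, and the 4 Paneth markers to 8457 to 12340 and 217 to 1575 CPM. Positions are of GENCODE vM21 on GRCm38, where the identifiers of all 10 match. The alternatives were no block, DESeq2, RLE normalization, other filters, leaving out the repeat-like genes, 1 fit over all libraries, the mouse as a block, only genes in both tables, and each library left out. The newer and the robust quasi-likelihood estimates were added after seeing the data.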

Additional observations from a re-analysis of the deposited data

How the results depend on the processing

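The step between ileum and colon kept its direction for all 10 genes in both genotypes, while its size in WT mice ran from 8.21 to 15.23 (log2) for Apoa4 with 1 library left out. All 10 genes were called higher in DDX5ΔIEC mice under each alternative, and in WT mice 8 to 10 of them were, with Fabp2 and Cd36 lost only when certain WT libraries were left out. Of all genes, 3153 to 6231 were called between the WT segments with 1 library left out. Cd36 had 15 to 21 counts in an ileum library, and 5 of the 10 genes had too few counts to be tested between the genotypes in the colon. Within a tissue the replicate numbers are not shown to pair the mice. Across genes, the deviations of same-numbered libraries correlated at 0.0179 in the colon and 0.26 in the ileum.

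Without the replicate block, 0 of the 10 genes were called in the ileum, and 0 were with DESeq2 and the block, a mean of at least 10 counts, no repeat-like genes, the newer or the robust estimate, or 1 fit over 8 libraries. Genes past the study's criterion then numbered 1 in the ileum and 1 in the colon without the block, 1 and 1 in the fit over 8 libraries, and 1 in the ileum with DESeq2 and the block. Over all genes, calls in the ileum numbered 1 without the block, 39 with DESeq2 and the block, 423 with no filter, 20 without the repeat-like genes, 58 with the newer estimate and 7 in the fit over 8 libraries. In the colon they numbered 5 without the block, 116 with DESeq2 and the block, and 10 in the fit over 8 libraries. For the interaction, calls over all genes numbered 1 with the mouse as a replicate block, 17 with DESeq2 and 210 with no filter, and with no filter 1 of the 10 genes, Apoa4, was called. The interaction of Fabp2 turned to -0.06 with the mouse as a replicate block, and the ileum log2 fold change of Mttp turned to -0.004 with no filter. The cause of these shifts was not tested.

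With each library left out in turn, where the block was dropped and the lone sample was assumed to vary like the other group, 0 of the 10 genes were called in the ileum and 0 to 2 in the colon. Those past the study's criterion numbered 1 to 4 and 0 to 2, and calls over all genes 1 to 23 and 0 to 2506. The interaction had 0 to 30 calls over all genes. The ileum log2 fold change ranged from -0.88 to 0.99 for Fabp2, -0.04 to 0.70 for Apoa1, -0.24 to 1.12 for Apoa4, -0.327 to 0.041 for Apob, -0.16 to 0.23 for Mttp, -0.21 to 0.41 for Mogat2 and -0.18 to 0.45 for Dgat1, each lowest without DDX5ΔIEC replicate 1. The colon log2 fold change ranged from -0.26 to 0.53 for Fabp2 and -0.16 to 0.15 for Mogat2. The interaction ranged from -1.09 to 0.81 for Fabp2, -2.51 to 0.72 for Apoa1, -3.52 to 3.50 for Apoa4, -0.25 to 0.41 for Mogat2 and -0.40 to 0.27 for Dgat1. Of 827 refitted values of single genes, 767 kept their direction and their side of the threshold, 25 changed sign, 24 were no longer called and 11 were newly called. The 767 include 150 segment values of the 10 genes in DDX5ΔIEC mice and 146 in WT mice. Genes that were not called and stayed so also count as kept. The number thus does not show that calls between the genotypes held, and that of Fabp1 depended on the fit.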
